A study of Mus musculus with 12 samples.

Results

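The circadian clock genes Clock, Arntl, Npas2, Per1, Per2, Per3, Cry1, Cry2, Nr1d1 and Nr1d2 were examined in single-nucleus RNA sequencing of mouse adipose tissue. The members were the 10 rows with these symbols among the 32285 genes of the deposited count tables, and all 10 were found. Levels were read in nuclei that carried markers of adipocytes, of adipose stem and progenitor cells (ASPC) or of endothelial cells, in each of 12 libraries. The time of day at which the tissue was taken is not stated in the labels, and neither is the light schedule. Differences between libraries in a gene with a daily rhythm can therefore not be told apart from differences in sampling time. Cell classes of the same library were sampled together, so a comparison between them holds no difference in sampling time. The hour itself stays unknown, and whether differences between classes depend on it was not tested.

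All mice were male C57BL/6J on normal chow, and the design compared depots, ages and the response to cold. Room temperature was 22 °C, and cold was 4 °C for 3 days. The labels name the depots by abbreviations. In common use mPRAT and lPRAT are perirenal fat (its medial and its lateral part), iBAT is brown fat between the shoulder blades and iWAT is white fat of the groin. Room-temperature libraries covered 1, 2 and 6 months for iBAT and mPRAT, only 6 months for iWAT, and 2 and 6 months for lPRAT. In the cold, mPRAT, iBAT and iWAT were sampled at 6 months. The 6-month libraries carry a second age label of 16 weeks, and the titles' age is used here. Each group is 1 library, and the number of mice in it, or whether depots came from the same mice, is not stated.

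The clock is a feedback loop of transcription factors. CLOCK, or its relative NPAS2, pairs with BMAL1, the product of Arntl, and activates genes through E-box sequences, among them the Per, Cry and Nr1d genes. PER and CRY proteins then inhibit the activators, and REV-ERBα and REV-ERBβ, the products of Nr1d1 and Nr1d2, compete with ROR receptors at RORE sequences and repress Arntl. In fat the clock is known for daily rhythms of lipid metabolism and, in brown fat, of heat production.

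A total of 96649 nuclei were kept of 119035 barcodes, with 3163 to 17485 per library, and libraries held 5461133 to 87035783 UMIs (unique molecular identifiers, each a counted RNA molecule). The gates took 62759 adipocyte, 5413 ASPC and 3795 endothelial nuclei. Markers left out of the gates placed 55.7% of adipocyte-gated nuclei in the same class and 0.564% in another, against 67.0% and 1.11% for ASPC and 56.0% and 0.316% for endothelial nuclei. In the cold mPRAT library 66.0% of barcodes exceeded the limit on mitochondrial RNA, and lPRAT at 2 months gave only 16 endothelial nuclei, which entered no comparison. No pair of libraries shared more than 59 barcodes. Levels are counts per 1000000 UMIs of the gate (CPM), and intervals cover counting error only.

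The promoter sequences of 9 of the 10 members were in the RefSeq table used, as windows from 250 bases before to 50 bases after a transcription start on the GRCm38 build. Per2 has no entry there and was not searched. They are shown because they hold the sequences through which the loop's own proteins are known to act. Capitals mark the E-box CACGTG, its variant CACGTT (written AACGTG on the other strand), the D-box TTANGTAA bound by DBP, TEF, HLF and NFIL3, or the RORE core TAGGTCA, each searched on both strands.
Arntl RORE core, chr7:113207530-113207558, + strand: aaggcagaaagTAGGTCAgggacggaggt
Per1 E-box, chr11:69098761-69098810, + strand: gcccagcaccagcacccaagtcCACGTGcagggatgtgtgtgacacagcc
Cry1 E-box and variant, chr10:85185087-85185136, - strand: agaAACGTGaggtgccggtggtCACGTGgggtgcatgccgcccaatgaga
Nr1d1 E-box variant, chr11:98775378-98775427, - strand: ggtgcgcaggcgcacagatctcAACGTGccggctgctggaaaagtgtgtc
Per3 D-box, chr4:151044841-151044892, - strand: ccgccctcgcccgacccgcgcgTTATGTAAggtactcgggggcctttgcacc
Per3 D-box, chr4:151044794-151044845, - strand: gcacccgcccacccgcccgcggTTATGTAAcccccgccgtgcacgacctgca
Ciart E-boxes, chr3:95882245-95882294, - strand: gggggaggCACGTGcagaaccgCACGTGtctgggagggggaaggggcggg

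The Arntl RORE begins 30 bases after a start, the Per1 E-box 166 bases before it and the Cry1 E-box 60 bases before it. Among the members, the E-box was found for Per1 and Cry1, the variant for Cry1, Cry2 and Nr1d1, the D-box for Per3 and the RORE core for Arntl. Of 16 associated genes, which are not members, 11 had an entry. Among them the E-box was found for Tef, Ciart and Bhlhe41, the variant and the D-box for Rorb and the RORE core for Nfil3. Only Ciart of these is shown. Of all 32851 promoters in the table, 7.15% held the E-box, 4.68% the variant, 2.32% the D-box and 2.61% the RORE core. A match is a description of these letters, and a window without one says nothing about the factor.

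The first question was whether cell classes of the same tissue differ in clock gene level. Npas2, the alternative partner of BMAL1 (chr1:39193731-39363236, + strand), had the largest log2 fold change of the 10 members between adipocyte and ASPC gates. In ASPC-gated nuclei its level ran from 8.47 CPM in cold iBAT over a median of 37.1 CPM to 161 CPM in mPRAT at 6 months. In adipocyte-gated nuclei it ran from 0.304 CPM over a median of 2.27 CPM to 10.0 CPM, so cold iBAT was the only ASPC library below the highest adipocyte library, iWAT at 6 months at room temperature. In endothelial-gated nuclei only 30 UMIs were counted in 11 libraries, with 0 in lPRAT and iWAT at 6 months at room temperature, where 3 UMIs would be 8.44 and 10.1 CPM. By edgeR's quasi-likelihood test with the library as a block, Npas2 was lower in adipocyte than in ASPC gates by a log2 fold change of -3.97 ± 0.55 (SE, adjusted p = 5.94e-07), and lower in 12 of 12 libraries. It was higher in ASPC than in endothelial gates by 3.08 ± 0.68 (adjusted p = 0.000488), in 10 of 11 libraries.

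Of the 10 members, 5 were higher and 1 lower in adipocyte than in ASPC gates, where 66.8% of 9888 genes were called, so the count is near the background. The higher ones were Clock, Per1, Per2, Per3 and Cry2. The repressor gene Cry2 (chr2:92403646-92434043, - strand) had 81.6 ± 19.9 CPM (SD, n = 12) in adipocyte and 45.9 ± 10.9 CPM in ASPC gates, a log2 fold change of 0.91 ± 0.14 (SE, edgeR adjusted p = 4.74e-06). Per2 (chr1:91415982-91459324, - strand), whose protein holds back the activators, had 79.8 ± 38.7 CPM in adipocyte and 52.8 ± 41.0 CPM in ASPC gates (SD, n = 12), and a log2 fold change of 0.83 ± 0.20 (edgeR adjusted p = 0.000788). Both were higher in the adipocyte gate in 12 of 12 libraries although their ranges over libraries overlapped. The other log2 fold changes were smaller, 0.39 for Clock, 0.46 for Per1 and 0.47 for Per3. In the 9 room-temperature libraries alone, Clock and Per1 did not pass (edgeR adjusted p = 0.0722 and 0.0679).

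In endothelial-gated nuclei Cry1 was higher, and Per3 lower, than in both other gates. Cry1 (chr10:85131700-85185064, - strand), the second cryptochrome repressor, had 48.3 ± 15.6 CPM (SD, n = 11) in endothelial gates, against 21.6 ± 8.90 CPM in adipocyte and 14.5 ± 8.78 CPM in ASPC gates (n = 12). It was lower than in endothelial gates by -1.16 ± 0.28 (log2, SE, edgeR adjusted p = 0.000696) in adipocyte gates and by -1.65 ± 0.30 (edgeR adjusted p = 5.97e-05) in ASPC gates, in 10 of 11 libraries each. Cold mPRAT was the exception in both cases, with 4 UMIs of Cry1 in its endothelial gate. Per3 (chr4:151003652-151044665, - strand), a period gene with a lesser part in the loop, had 110 ± 24.4 CPM in adipocyte, 89.8 ± 45.3 CPM in ASPC (n = 12) and 55.8 ± 14.9 CPM in endothelial gates (n = 11). It was higher in adipocyte than in endothelial gates by 1.09 ± 0.17 (log2, SE, edgeR adjusted p = 3.07e-06), in 11 of 11 libraries. Its difference between ASPC and endothelial gates, 0.61 ± 0.17 (edgeR adjusted p = 0.00458), was 0.26 in the room-temperature libraries (edgeR adjusted p = 0.201). Background shares called were 68.3% for adipocyte over endothelial gates, where 1 member was higher and 1 lower, and 47.3% for ASPC over endothelial gates, where 2 members were higher and 3 lower. Besides Npas2, Per3 and Cry1, these were Per1 (log2 -0.69 ± 0.17, edgeR adjusted p = 0.00166) and Cry2 (log2 -0.62 ± 0.16, edgeR adjusted p = 0.00238). In the room-temperature libraries Per2 was also lower in ASPC than in endothelial gates (log2 -0.92 ± 0.22, edgeR adjusted p = 0.00212), against -0.46 ± 0.23 (edgeR adjusted p = 0.104) over all libraries. Per3 lies wholly within the annotation of Camta1 on the same strand. Cry2 shares 23417 bases with the antisense transcript D930015M05Rik, and Arntl 2394 bases with Gm45355 on the opposite strand. How reads in shared bases were counted is not given in the sources used here, and its part in these levels was not tested.

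Arntl (chr7:113207465-113314126, + strand), Nr1d1 (chr11:98767932-98775333, - strand) and Nr1d2 (chr14:18204054-18239127, - strand) passed in none of the 3 contrasts over all libraries. For Nr1d1 the log2 fold change of adipocyte over ASPC gates was 0.10 ± 0.17 (edgeR adjusted p = 0.625), and for Nr1d2 it was 0.12 ± 0.14 (edgeR adjusted p = 0.442). For Arntl it was -0.53 ± 0.49 (SE, edgeR adjusted p = 0.349), with 5 libraries higher and 7 lower in adipocytes. In the 9 room-temperature libraries Arntl was lower in adipocyte than in ASPC gates by -1.48 ± 0.31 (edgeR adjusted p = 0.00038), and higher in ASPC than in endothelial gates by 0.94 ± 0.36 (edgeR adjusted p = 0.0444).

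**Figure D1:**
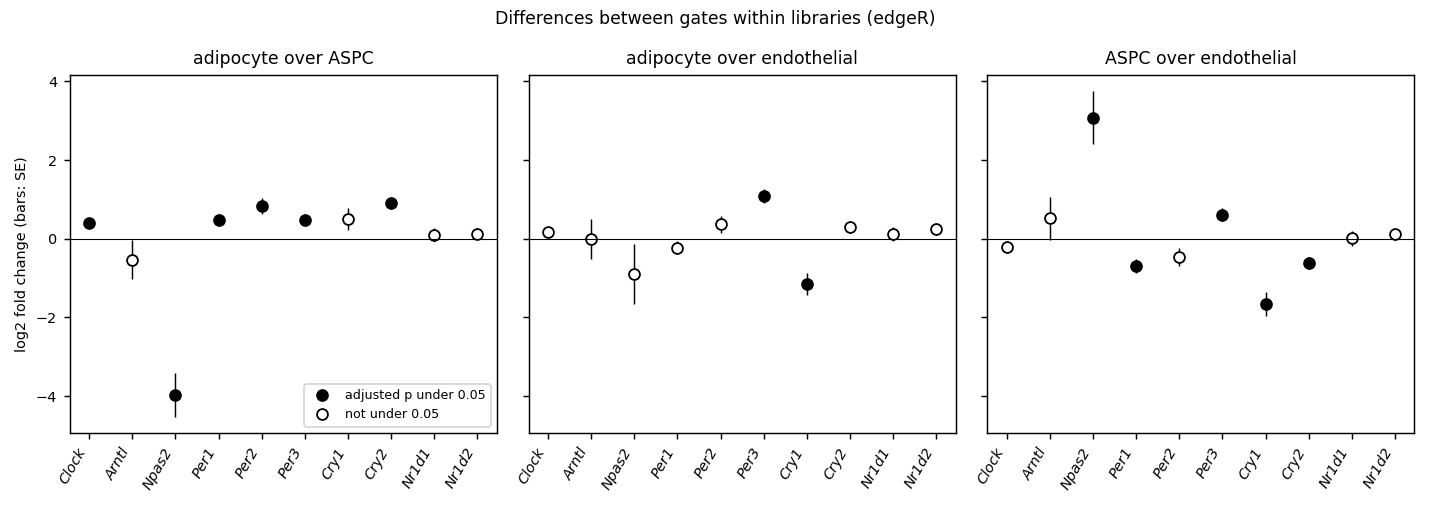
Log2 fold change of each clock gene between gates, from the edgeR fit with the library as a block (bars are standard errors, filled points have an adjusted p under 0.05). Npas2 stands lowest in adipocyte over ASPC gates at -3.97, and Cry1 is lower in both other gates than in endothelial gates.

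Genes tied to the clock gave the background for these levels. Of 16 listed, 14 were tested, and 5 were higher and 5 lower in adipocyte than in ASPC gates, near the 66.8% called of all genes. Rora, an activating receptor that competes with the REV-ERB proteins, had means of 1865 and 4038 CPM in adipocyte and ASPC gates (log2 -0.95 ± 0.20, edgeR adjusted p = 0.000186), and its relative Rorb 14.4 and 78.8 CPM (log2 -3.21 ± 0.53, edgeR adjusted p = 8.26e-06). Tef, a D-box activator, was higher in adipocyte than in ASPC gates in 12 of 12 libraries (log2 1.09 ± 0.12, edgeR adjusted p = 1.68e-08). Dbp, its relative and a classic clock output, was not (log2 0.18 ± 0.25, edgeR adjusted p = 0.534).

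The design's question on cold was addressed at 6 months, with 1 library per depot and temperature. Libraries were first set side by side within each depot, and each gate was then tested over the 3 depots. In ASPC-gated nuclei the activator genes Arntl and Npas2 were far lower, and Per2 and Per3 higher, in the cold libraries of all 3 depots. In adipocyte-gated nuclei of mPRAT and iBAT, Arntl was higher in the cold. Per2 was higher in the cold in both classes and all 3 depots. A difference counted as past 2-fold when the log2 ratio of (CPM + 5) was at least 1 in size, with at least 20 UMIs over both libraries.

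Arntl in ASPC gates had 79.7 CPM (140 UMIs) at room temperature and 2.70 CPM (2 UMIs) in the cold in mPRAT. In iBAT the levels were 97.7 CPM (81 UMIs) and 3.53 CPM (5 UMIs), and in iWAT 106 CPM (335 UMIs) and 12.4 CPM (16 UMIs). Each cold library thus lay below the 6-month room-temperature libraries of these depots, and below lPRAT of that age, at 34.2 CPM, which has no cold library. The level was 29.5-fold lower in cold mPRAT (95% exact interval 8.02 to 246), 27.7-fold lower in cold iBAT (11.4 to 87.6) and 8.55-fold lower in cold iWAT (5.19 to 15.1). With nuclei gated by the left-out markers, the log2 ratio in mPRAT was -1.50 in place of -3.46. Adipocyte RNA carried into the gate, judged by Adipoq at 7.70% in cold mPRAT and 10.7% in cold iBAT, would by itself give 3.79 and 7.04 CPM of Arntl. The measured levels there were no higher than this background. In cold iWAT that background was 0.597 CPM.

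Npas2 in ASPC gates was likewise lower in the cold. It had 161 CPM (283 UMIs) at room temperature and 16.2 CPM (12 UMIs) in the cold in mPRAT. In iBAT it had 144 CPM (119 UMIs) and 8.47 CPM (12 UMIs), and in iWAT 85.1 CPM (268 UMIs) and 10.9 CPM (14 UMIs). Again the cold libraries lay below those of room temperature at that age, lPRAT with 37.9 CPM included. Levels were 9.94-fold lower in cold mPRAT (95% exact interval 5.60 to 19.5), 17.0-fold lower in cold iBAT (9.35 to 33.7) and 7.82-fold lower in cold iWAT (4.58 to 14.5). Clock itself, the other partner of BMAL1, was 132, 121 and 135 CPM in the cold ASPC gates of mPRAT, iBAT and iWAT, against 175, 159 and 196 CPM at room temperature, within 2-fold in each.

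Per2 in ASPC gates had 19.3 CPM (34 UMIs) at room temperature and 81.0 CPM (60 UMIs) in the cold in mPRAT. In iBAT it had 10.9 CPM (9 UMIs) and 163 CPM (231 UMIs), and in iWAT 14.9 CPM (47 UMIs) and 49.7 CPM (64 UMIs). Cold levels were 4.19-fold higher in mPRAT (95% exact interval 2.70 to 6.58), 15.01-fold higher in iBAT (7.77 to 33.2) and 3.33-fold higher in iWAT (2.25 to 4.97). Adipocyte RNA in the cold gates would by itself give 8.75, 18.3 and 1.79 CPM of Per2 in the 3 depots, below what was measured. Per3 had 49.5 and 139 CPM in mPRAT, 51.9 and 200 CPM in iBAT and 56.2 and 123 CPM in iWAT, at room temperature and in the cold in that order. In iWAT its log2 ratio was 1.06, and 0.77 when every nucleus weighed the same. Cry1 was past 2-fold in iBAT alone, with 8.44 CPM (7 UMIs) at room temperature and 33.9 CPM (48 UMIs) in the cold. Per1 was at 25.6 and 36.4 CPM in mPRAT, 37.4 and 38.1 CPM in iBAT and 10.8 and 16.3 CPM in iWAT, within 2-fold.

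Of the 10 members, 2 were past 2-fold higher and 2 lower in ASPC gates of mPRAT, where 8.47% of 10086 genes were past 2-fold. In iBAT 3 were higher and 2 lower, with 8.99% of genes past 2-fold, and in iWAT 2 were higher and 2 lower, with 3.85%. The median log2 ratio of the members was 0.46, 0.62 and 0.01 in the 3 depots, beside -0.03, 0.06 and -0.02 over all genes.

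In adipocyte gates, Arntl had 16.7 CPM (407 UMIs) at room temperature and 49.3 CPM (526 UMIs) in the cold in mPRAT. In iBAT it had 12.3 CPM (487 UMIs) and 66.1 CPM (4643 UMIs), and in iWAT 29.5 CPM (1035 UMIs) and 24.6 CPM (408 UMIs). The cold mPRAT and iBAT libraries were the highest of all 12, and iWAT was slightly lower in the cold. Levels were 2.95-fold higher in cold mPRAT (95% exact interval 2.59 to 3.37) and 5.36-fold higher in cold iBAT (4.88 to 5.89). Per2 was higher in the cold in each depot, with 52.8 and 114 CPM in mPRAT, 39.6 and 172 CPM in iBAT and 31.2 and 73.6 CPM in iWAT. The ratios were 2.15 (1.99 to 2.33), 4.34 (4.12 to 4.58) and 2.36 (2.17 to 2.56). In mPRAT the log2 ratio of Per2 was 1.04, and 0.98 with the left-out markers as gate.

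Nr1d1, the repressor of Arntl, was lower in cold adipocyte gates, with 70.1 and 36.4 CPM in mPRAT, 74.8 and 33.0 CPM in iBAT and 57.3 and 18.4 CPM in iWAT. The log2 ratios were -0.86, -1.07 and -1.41, so mPRAT was within 2-fold, and iBAT was too under TMM scaling (-0.88) and with the left-out markers as gate (-0.93). In ASPC gates the same gene had 42.7 and 33.7 CPM in mPRAT, 45.8 and 69.8 CPM in iBAT and 37.1 and 36.5 CPM in iWAT, all within 2-fold. In iWAT adipocyte gates Per3 had 77.6 and 165 CPM and Cry1 4.62 and 22.8 CPM, 4.93-fold higher in the cold for Cry1 (95% exact interval 4.09 to 5.97). The log2 ratio of Per3 there was 1.04, and 0.87 with nuclei weighted equally. Nr1d1 shares 1075 bases with Thra on the opposite strand, and whether strand was used in counting is not given in the sources used here.

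Among the 10 members in adipocyte gates, 2 were past 2-fold higher and 0 lower in cold mPRAT, where 6.55% of 15006 genes were past 2-fold. In cold iBAT 2 were higher and 1 lower, beside 6.7% of genes, and in cold iWAT 3 were higher and 1 lower, beside 3.8% of genes. Endothelial gates held few UMIs of these genes. There 0 of the 9 members with 20 UMIs were past 2-fold in mPRAT (13.9% of genes) and iBAT (10.2%), and in iWAT (7.58%) Nr1d1 was lower, with 57.4 CPM (17 UMIs) and 22.1 CPM (9 UMIs). With the left-out markers as gate, its log2 ratio was -0.43 in place of -1.20, within 2-fold. Endothelial Arntl was at 31.2 and 23.4 CPM in mPRAT, 23.2 and 18.7 CPM in iBAT and 43.9 and 39.4 CPM in iWAT. With at least 1000 UMIs per nucleus, 7 endothelial ratios were past 2-fold in place of 1.

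**Figure D2:**
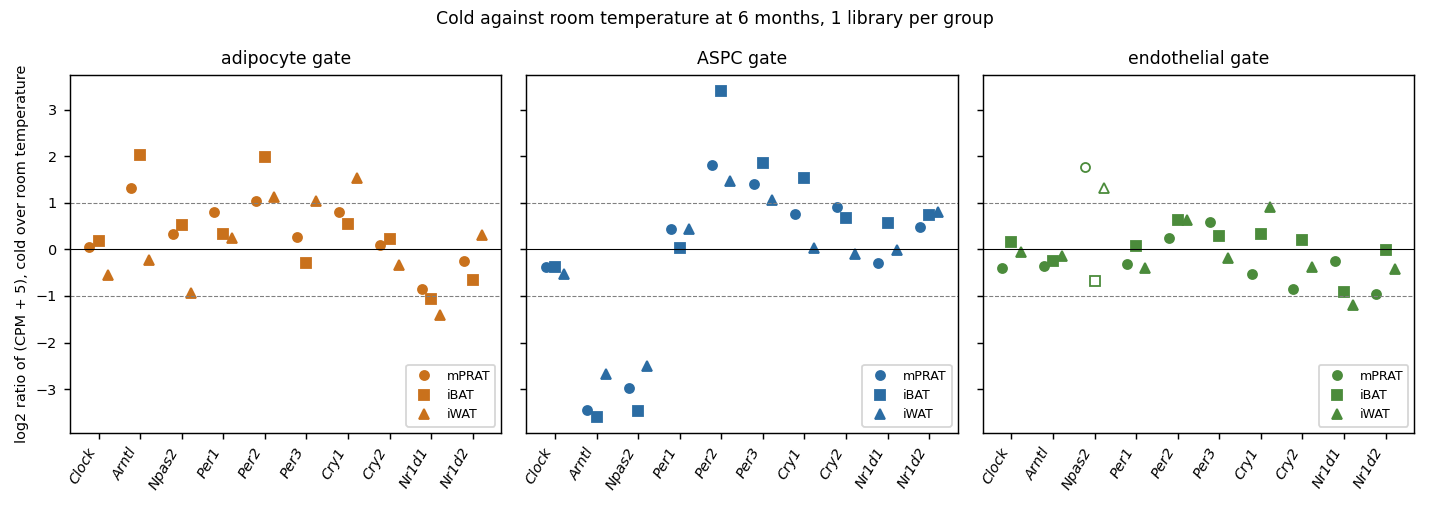
Log2 ratio of (CPM + 5), cold over room temperature, for each clock gene in 3 gates, with a marker per depot and dashed lines at 2-fold (open markers have under 20 UMIs). Arntl lies below -2 in ASPC gates of all 3 depots and above 1 in adipocyte gates of mPRAT and iBAT, while Per2 lies above 1 in both gates (1.04 in mPRAT adipocyte gates, where the left-out markers gave 0.98).

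Cold and room temperature were then compared within each gate over the 3 depots. This was edgeR's quasi-likelihood test on 6 sums with the depot as a block, chosen after these values were seen. Its replicates are the 3 depots, which may come from the same mice, so its p-values do not measure the spread between mice. Cold cannot be told apart from sampling time in it. In ASPC gates Npas2 (log2 -3.45 ± 0.27, SE, edgeR adjusted p = 0.0236) and Arntl (log2 -3.92 ± 0.37, edgeR adjusted p = 0.0458) were lower in the cold, in 3 of 3 depots each. These 2 members were the only genes of 9830 that passed there (0.0203% called, 979 with an unadjusted p under 0.05). Per3 (log2 1.49 ± 0.19, edgeR adjusted p = 0.0628) and Per2 (log2 2.41 ± 0.37, edgeR adjusted p = 0.0983) did not pass, with higher levels in 3 of 3 depots. Without the mPRAT pair both did (edgeR adjusted p = 0.0119 and 0.00564). Without the iBAT pair neither Npas2 (log2 -3.11, edgeR adjusted p = 0.0907) nor Arntl (log2 -3.53, edgeR adjusted p = 0.0924) passed. Arntl did not pass with the left-out markers as gate (log2 -2.84, edgeR adjusted p = 0.0837) or with adipocyte RNA subtracted (log2 -4.68, edgeR adjusted p = 0.182). Over all alternatives by edgeR the adjusted p ran from 3.32e-33 to 0.0907 for Npas2 and from 1.2e-32 to 0.182 for Arntl, the lowest without the filter on low counts. With 6 sums, values that small are no usable measure of the spread between depots. By DESeq2 70 genes passed, among them Npas2, Arntl, Per2 and Per3.

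In adipocyte gates 0 of 15620 genes passed by edgeR (0% called), while 3134 had an unadjusted p under 0.05 and 1557 passed by DESeq2. Per2 had a log2 difference of 1.64 ± 0.24 (SE, edgeR adjusted p = 0.0792), higher in the cold in 3 of 3 depots, and Nr1d1 one of -1.10 ± 0.17 (edgeR adjusted p = 0.0838), lower in 3 of 3. For Arntl it was 1.41 ± 0.53 (edgeR adjusted p = 0.238), higher in 2 of 3, and without the iWAT pair 2.07 (edgeR adjusted p = 0.0236). Without that pair Per2, Cry1 and Nr1d1 passed too (edgeR adjusted p = 0.0355, 0.037 and 0.0244). By DESeq2 5 members passed, Arntl, Per1, Per2 and Cry1 higher and Nr1d1 lower. In endothelial gates 0 of the 9 members tested passed, beside 31 of 6153 genes (0.504%), and 1 member, Nr1d1, had an unadjusted p under 0.05 (log2 -0.92 ± 0.35, edgeR adjusted p = 0.379). By DESeq2 0 endothelial members passed.

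The difference between ASPC and adipocyte gates in the cold response was tested with the libraries of the same depots as replicates. The fit had the library as a block and did not pair the cold and room-temperature libraries of a depot. This test too was chosen after the values were seen. For Arntl the log2 response in ASPC minus that in adipocyte gates was -5.47 ± 0.73 (SE, unadjusted p = 9.45e-06, edgeR adjusted p = 0.113). It had the smallest p of 11956 genes and did not pass. By edgeR 0 genes passed (0% called), 594 had an unadjusted p under 0.05, and by DESeq2 7 genes passed, among them Arntl (adjusted p = 3.59e-08). Over the alternatives run, Arntl's difference ranged from -7.08 to -4.22. It was -5.22 without the mPRAT pair and -4.31 without the iBAT pair (edgeR adjusted p = 1 in both), and -6.93 without the iWAT pair (edgeR adjusted p = 0.0115), the depot where Arntl was not higher in cold adipocyte gates. Without the filter on low counts it was -5.44 (edgeR adjusted p = 0.000432), and over all alternatives by edgeR the adjusted p ran from 0.000432 to 1. For Npas2 the difference was -4.14 ± 1.26 (edgeR adjusted p = 0.979), for Nr1d1 1.21 ± 0.35 (0.979) and for Per3 1.01 ± 0.37 (0.979).

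Clock-controlled genes in the same libraries were read from the 16 listed. In ASPC gates Dbp was past 2-fold higher in the cold in all 3 depots, with 14.2 and 35.1 CPM in mPRAT, 15.7 and 79.7 CPM in iBAT and 10.2 and 32.6 CPM in iWAT. The mPRAT ratio was close to the limit, and ratios of associated genes were not recomputed under the alternatives. Tef was higher in iBAT (123 and 354 CPM) and iWAT (100.0 and 266 CPM), and had 120 and 238 CPM in mPRAT. In adipocyte gates Dbp was within 2-fold, with 33.7 and 28.5 CPM in mPRAT, 39.3 and 18.9 CPM in iBAT and 16.6 and 24.1 CPM in iWAT. Ciart, a repressor of the activators, was past 2-fold higher in cold adipocyte gates of all 3 depots. It had 5.95 and 35.7 CPM in mPRAT, 11.4 and 41.8 CPM in iBAT and 0.627 and 8.61 CPM in iWAT. Usp2, a deubiquitinase of clock proteins, had 19.6 and 75.7 CPM in mPRAT and 30.5 and 90.9 CPM in iBAT adipocyte gates. Bhlhe40, which encodes a repressor at E-boxes, had 59.8 and 127 CPM in mPRAT.

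Of the 16 listed genes, 4 were past 2-fold higher and 0 lower in adipocyte gates of cold mPRAT, 3 higher and 2 lower in cold iBAT and 1 higher and 0 lower in cold iWAT, beside 6.55%, 6.7% and 3.8% of all genes past 2-fold. The iWAT count is near that background. The lower genes in iBAT were Rora, at 2463 and 891 CPM, and Rorb, at 73.9 and 29.9 CPM. In ASPC gates 1 of the 12 with 20 UMIs was higher in mPRAT, 4 of 14 higher and 1 lower in iBAT and 3 of 12 higher in iWAT, beside 8.47%, 8.99% and 3.85% of all genes, so the mPRAT count is near the background.

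The ASPC gate of iBAT at 6 months and room temperature stood apart in immediate early genes, which respond quickly to stimuli and to handling. In this gate Fos had 123 CPM, Fosb 148 CPM and Egr1 349 CPM, against at most 6.75, 5.93 and 116 CPM in the other 11 ASPC gates. Of the 14 early and glucocorticoid-responsive genes read, all 14 had 20 UMIs in the cold comparison of iBAT ASPC gates. Of these, 9 were past 2-fold lower and 0 higher, beside 8.99% of all genes past 2-fold. In mPRAT (8.47%) 11 had 20 UMIs, with 1 lower and 0 higher, which is near the background. In iWAT (3.85%) 10 had them, with 0 lower and 1 higher. The part of this in the ASPC values of iBAT was not tested.

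Arntl and Npas2 of ASPC gates were next followed over age. In mPRAT at room temperature Arntl had 18.2 CPM (7 UMIs) at 1 month, 6.52 CPM (3 UMIs) at 2 months and 79.7 CPM at 6 months. The iBAT levels were 32.6 CPM (11 UMIs), 13.6 CPM (7 UMIs) and 97.7 CPM, and in lPRAT 22.3 CPM (13 UMIs) at 2 months and 34.2 CPM (66 UMIs) at 6 months. The 3 libraries that served as room-temperature reference for cold were thus the 3 highest of all 12. The cold levels of 2.70 to 12.4 CPM overlapped with the 6.52 to 32.6 CPM of the room-temperature libraries at 1 and 2 months. Npas2 at 1 and 2 months had 36.4 and 56.5 CPM in mPRAT, 35.6 and 68.1 CPM in iBAT and 10.3 CPM at 2 months in lPRAT.

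From 2 to 6 months, Arntl in ASPC gates was 12.2-fold higher in mPRAT (95% exact interval 4.10 to 59.97, on 3 UMIs at 2 months) and 7.17-fold higher in iBAT (3.33 to 18.4). Npas2 was 2.85-fold higher in mPRAT (1.90 to 4.44), 2.11-fold in iBAT (1.44 to 3.17) and 3.69-fold in lPRAT (1.62 to 10.4). With each nucleus weighing the same, Npas2 was within 2-fold in iBAT (log2 0.89 in place of 1.02) and lPRAT (0.73 in place of 1.49). With the strict gate it was 1.65 in iBAT, and with at least 1000 UMIs 2.29 in lPRAT. For Arntl in iBAT the strict gate gave 3.33 in place of 2.46. With the left-out markers as gate, the log2 ratio of Arntl in mPRAT was 1.58 in place of 2.88. Per2 in ASPC gates of iBAT went from 60.3 CPM (31 UMIs) at 2 months to 10.9 CPM (9 UMIs) at 6 months. Of 10 members, 2 were past 2-fold higher in mPRAT (10.2% of genes past 2-fold), 2 higher and 1 lower in iBAT (8.14%), where Cry1 had under 20 UMIs, and 1 higher in lPRAT (10.7%). The lPRAT count is near the background. From 1 to 2 months 0 of the 8 members with 20 UMIs were past 2-fold in ASPC gates of mPRAT (7.88% of genes) or iBAT (5.73%). Arntl and Cry1 had fewer UMIs, and the log2 ratio of Arntl was -1.01 in mPRAT and -1.01 in iBAT.

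Adipocyte gates were compared over the same ages. From 1 to 2 months 0 members were past 2-fold in mPRAT (1.52% of genes) or iBAT (1.23%). From 2 to 6 months Cry1 was lower in mPRAT, at 32.2 and 12.3 CPM (3.33% of genes past 2-fold), and in lPRAT, at 27.6 and 9.64 CPM (9.99%). In mPRAT the log2 ratio of Cry1 was -1.10, and -0.90 with nuclei weighted equally. In lPRAT Clock (chr5:76209868-76304792, - strand) was higher, at 63.8 CPM (155 UMIs) and 170 CPM (2586 UMIs), and Nr1d2 lower, at 549 and 247 CPM. The library of lPRAT at 2 months was the shallowest, and with the left-out markers as gate the log2 ratios there were 0.92 for Clock, -0.34 for Cry1 and -0.95 for Nr1d2. In iBAT Per2 was lower at 6 months, at 84.5 and 39.6 CPM (3.39% of genes), with a log2 ratio of -1.01 that 4 of the 9 alternatives put within 2-fold. Among the 9, subtracting adipocyte RNA cannot change an adipocyte gate.

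The associated genes of adipocyte gates were counted over age too. In lPRAT 5 of 16 were past 2-fold lower at 6 months, on the shallow 2-month library, beside 9.99% of all genes past 2-fold. The 3 largest were Ciart, at 48.2 CPM and 2.89 CPM, Bhlhe40, at 107 and 14.5 CPM, and Hlf, at 75.3 and 12.4 CPM. In mPRAT from 2 to 6 months (3.33% of genes) 1 was higher and 1 lower, with Bhlhe41 the higher one, at 4.98 and 18.3 CPM. In iBAT (3.39%) Bhlhe40, at 50.4 and 161 CPM, and Rorb, at 24.7 and 73.9 CPM, were higher. From 1 to 2 months 1 gene was lower in each depot. It was Bhlhe41 in mPRAT (1.52% of genes), at 15 and 4.98 CPM, and Hlf in iBAT (1.23%), at 217 and 104 CPM.

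Glucocorticoids follow a daily rhythm and induce Per1 and Fkbp5. In adipocyte gates Per1 had a median of 42.5 CPM over the 12 libraries, and Fkbp5 ran from 9.00 to 473 CPM. Both iBAT libraries of 6 months, at 9.00 CPM at room temperature and 11.6 CPM in the cold, lay below the other 10, of which mPRAT at 6 months was the lowest, at 64.0 CPM at room temperature and 65.0 CPM in the cold. The part of this in the clock gene levels was not tested.

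Endothelial gates showed scattered differences over age. From 1 to 2 months 1 of 7 members with 20 UMIs was past 2-fold in mPRAT and 1 of 9 in iBAT. From 2 to 6 months 1 of 9 was higher and 1 lower in each depot. Per2 had 121 CPM at 1 month and 46.3 CPM at 2 months in mPRAT (8.75% of genes past 2-fold), and Arntl 5.23 CPM (5 UMIs) and 34.5 CPM (22 UMIs) in iBAT (3.06%). The log2 ratio of Per2 was -1.30, but -0.72 with nuclei weighted equally, -0.99 without the mitochondrial limit and -2.33 with at least 1000 UMIs. From 2 to 6 months in mPRAT, Per1 (chr11:69095217-69109960, + strand) was lower, at 88.0 and 37.4 CPM, and Nr1d1 higher, at 9.26 CPM (2 UMIs) and 56.2 CPM (36 UMIs), with 13.6% of genes past 2-fold. The log2 ratio of Per1 was -1.13, but -0.94 with the strict gate and -0.76 with the left-out markers. In iBAT Per2 was lower, at 97.3 and 41.8 CPM, and Nr1d1 higher, at 40.8 and 97.6 CPM (14.8%). There the log2 ratio of Nr1d1 was 1.16, but 0.98 with the left-out markers and 0.88 with nuclei weighted equally, and that of Per2 was -1.13, or -1.87 with the left-out markers.

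Depots were compared at 6 months and room temperature. In adipocyte gates against iBAT, 0 members were past 2-fold in mPRAT (6.08% of genes) and 0 in lPRAT (15%). In iWAT (13.9%) Npas2 was higher, at 10.0 CPM (351 UMIs) beside 0.304 CPM (12 UMIs), and Cry1 lower, at 4.62 CPM (162 UMIs) beside 17.8 CPM (704 UMIs). With 1 higher and 1 lower of 10 members, the iWAT count is near the background. With 1 CPM added in place of 5, the log2 ratio of Npas2 was 3.08 in place of 1.50, and 5 in place of 2 ratios of adipocyte gates were past 2-fold. These comparisons share the iBAT library. Npas2 was higher in ASPC than in adipocyte gates, and ASPC RNA carried into adipocyte gates was not estimated. Of the 16 associated genes, 2 were lower in mPRAT than in iBAT, 7 lower and 1 higher in lPRAT, and 6 lower in iWAT. Rorb had 73.9 CPM in iBAT and 4.14, 2.16 and 1.03 CPM in mPRAT, lPRAT and iWAT adipocyte gates. Bhlhe40 had 161 CPM in iBAT and 59.8, 14.5 and 10.8 CPM in the others. Hlf was lower in lPRAT, at 12.4 CPM beside 120 CPM in iBAT.

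In ASPC gates 0 members were past 2-fold in mPRAT against iBAT (10.3% of genes). In lPRAT (15.8%) Arntl, at 34.2 CPM, and Npas2, at 37.9 CPM, were lower than in iBAT and Per2, at 55.5 CPM, was higher. In iWAT (10.2%) Per1 was lower, at 10.8 CPM (34 UMIs) beside 37.4 CPM (31 UMIs), and as 1 of 10 members this is near the background. In endothelial gates 0 members were past 2-fold in mPRAT (18% of genes), Per1 was lower in lPRAT (20.7%), at 22.5 CPM (8 UMIs) beside 53.4 CPM (23 UMIs), and Cry2 higher in iWAT (20.8%), at 101 CPM beside 41.8 CPM. These were 1 of 8 members with 20 UMIs in lPRAT and 1 of 9 in iWAT, below the shares of all genes. With nuclei weighted equally the log2 ratio of Per1 in lPRAT was -0.57 in place of -1.09, within 2-fold. Early genes were high in the ASPC gate of this iBAT library. Of the 14 early and glucocorticoid-responsive genes, 8, 8 and 9 were past 2-fold lower and 0 higher than in iBAT in ASPC gates of mPRAT, lPRAT and iWAT. In endothelial gates 10 of them had 20 UMIs, and 5, 6 and 7 were lower and 1, 2 and 1 higher. Adipocyte gates did not share this. There all 14 had 20 UMIs, and 0, 1 and 1 were lower and 3, 4 and 2 higher than in iBAT. The shares of all genes past 2-fold there were 6.08%, 15% and 13.9%. From 2 to 6 months in iBAT, 7 of 14 were higher and 2 lower in ASPC gates (8.14% of genes past 2-fold). In endothelial gates of the same ages 5 of 10 were higher and 3 lower (14.8%), and in adipocyte gates 1 of 14 was higher and 3 lower (3.39%). The part of this in the Per1 and other clock gene values was not tested.

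**Figure D3:**
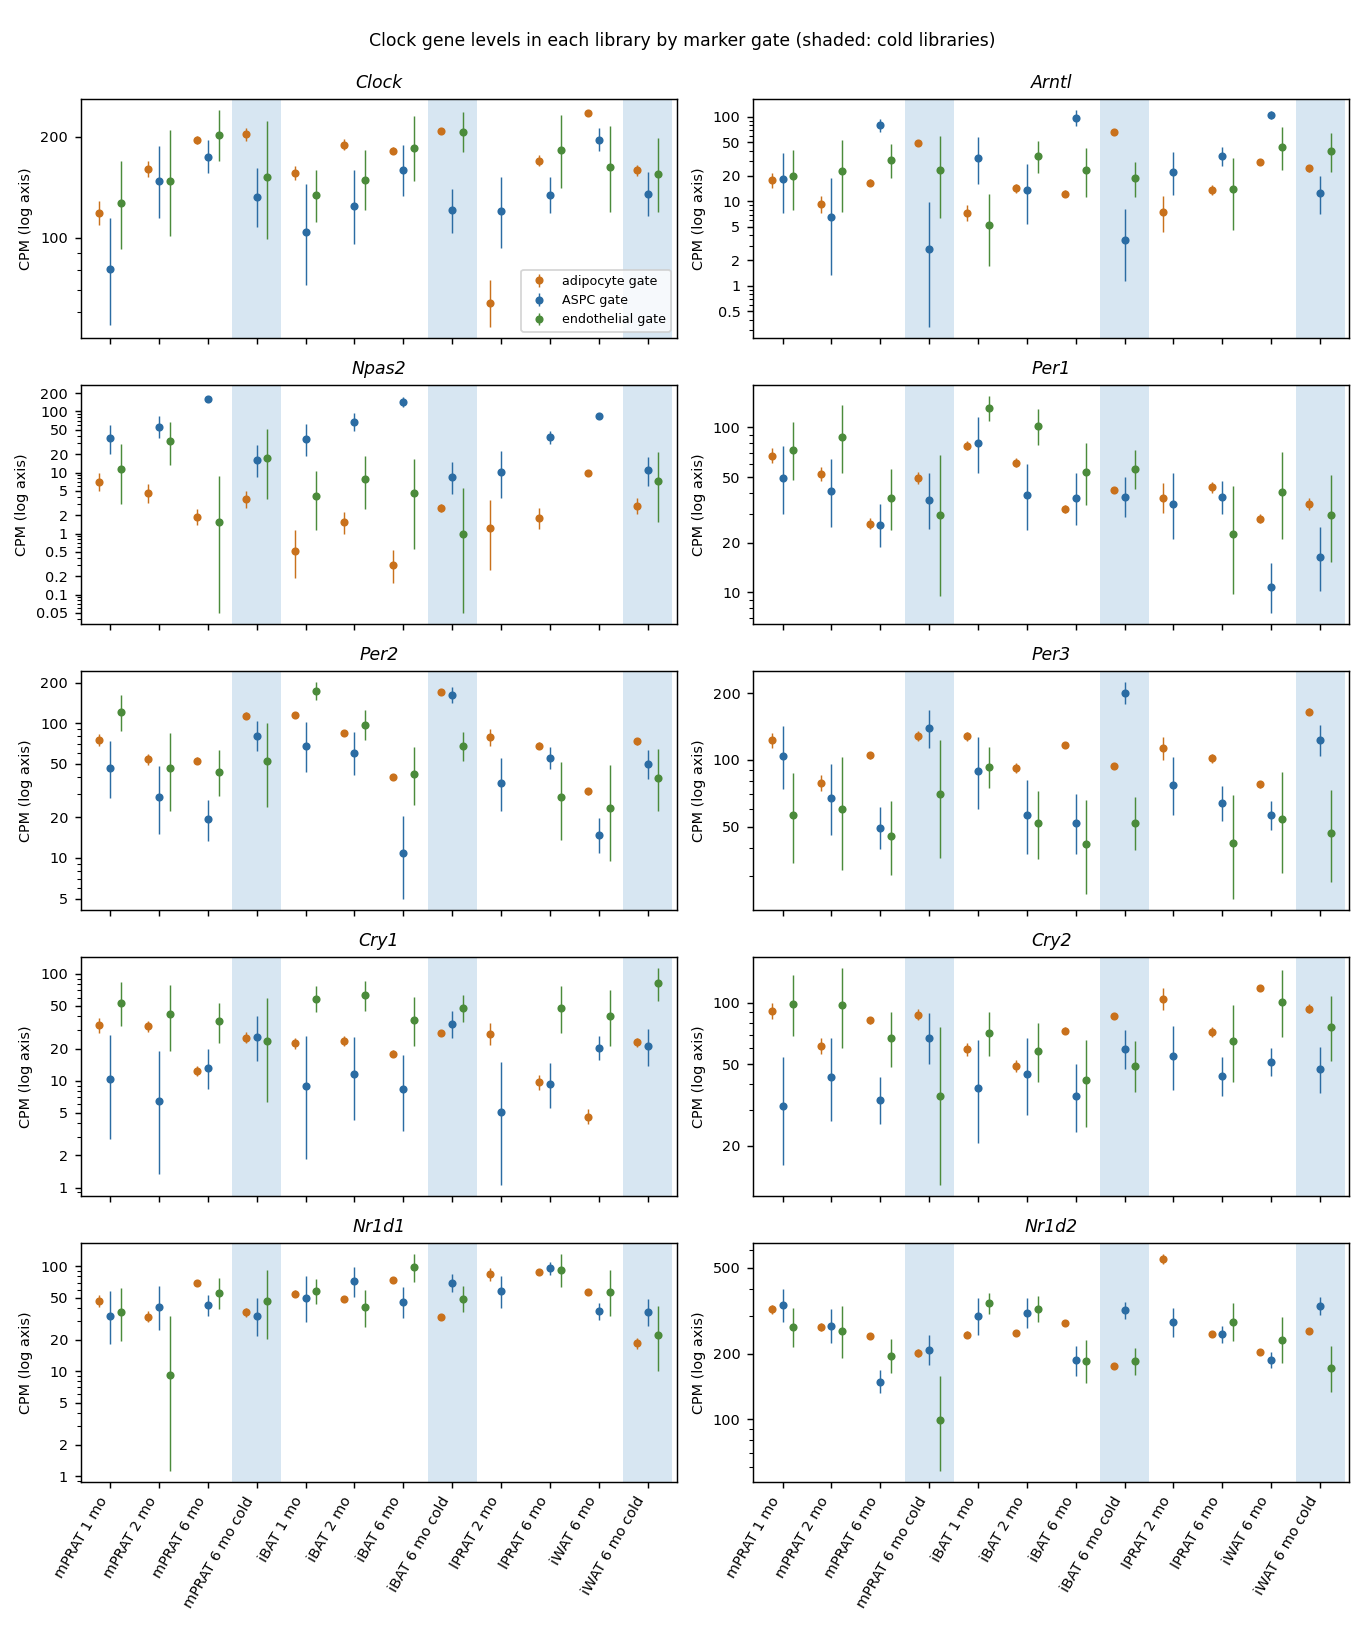
Level of each clock gene in CPM (log axis) in the 12 libraries, by gate, with 95% exact Poisson intervals that cover counting error only (levels of 0 and the 16 endothelial nuclei of lPRAT at 2 months are not drawn, and bounds below 0.05 CPM are drawn at 0.05). ASPC levels of Arntl and Npas2 are highest at 6 months at room temperature in mPRAT, iBAT and iWAT and low in the shaded cold libraries.

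Finally, members were compared across libraries, in a family of 45 relations on log2(CPM + 5) with Benjamini-Hochberg adjustment. Libraries are the points, and gates of a library share its tissue, sampling time and free RNA. Per2 of adipocyte and ASPC gates moved closely together over 12 libraries (Pearson r = 0.953, permutation p = 1e-05, the smallest that 100000 permutations can give, adjusted p = 0.00045, Spearman rho = 0.916, permutation p = 0.00015, adjusted p = 0.00675). Without the 2 libraries farthest from the median, cold iBAT and iWAT at room temperature, r was 0.924, and in the 9 room-temperature libraries it was 0.911. Per1 of the same gates gave r = 0.80 (permutation p = 0.00097, adjusted p = 0.0218) and rho = 0.881 (permutation p = 0.00036, adjusted p = 0.0081), with r = 0.737 without the 2 farthest and 0.811 at room temperature.

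For Arntl the same relation did not pass over 12 libraries (r = -0.389, permutation p = 0.211, adjusted p = 0.412, rho = -0.336, permutation p = 0.287, adjusted p = 0.561). At room temperature r was 0.504. Leaving out cold iBAT and cold mPRAT, the 2 farthest, turned r to 0.288. Npas2 gave r = -0.00073 (permutation p = 0.998, adjusted p = 0.998) and rho = -0.028 (permutation p = 0.94, adjusted p = 0.991).

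Within ASPC gates Arntl went with Npas2 at r = 0.728 (permutation p = 0.0082, adjusted p = 0.0615) and rho = 0.657 (permutation p = 0.0245, adjusted p = 0.123), and against Per3 at r = -0.755 (permutation p = 0.00515, adjusted p = 0.0579) and rho = -0.797 (permutation p = 0.00281, adjusted p = 0.0316). Without the room-temperature iBAT and iWAT libraries of 6 months, the 2 farthest, r was 0.605 and -0.700. At room temperature r was 0.557 and -0.516. Over the 12 libraries neither passed by r, and the relation to Per3 passed by rho. In adipocyte gates Arntl against Per3 gave r = 0.00276 (permutation p = 0.994, adjusted p = 0.998). Nr1d1 and its fellow clock output Dbp went together in endothelial gates of 11 libraries (r = 0.831, permutation p = 0.00268, adjusted p = 0.0402, rho = 0.882, permutation p = 0.00074, adjusted p = 0.0111). There r was 0.614 without the 2 farthest libraries and 0.869 at room temperature, on as few as 2 UMIs per library. The pair did not pass by r with log2(CPM + 1) or in the 8 libraries of mPRAT and iBAT. In adipocyte gates the same pair had r = 0.659 (permutation p = 0.0198, adjusted p = 0.127). Nr1d1 of adipocyte gates went with Nr1d1 of endothelial gates by rho (0.818, permutation p = 0.00353, adjusted p = 0.0318). By r it did not pass (0.758, permutation p = 0.00704, adjusted p = 0.0615). That r was 0.686 without the 2 farthest libraries and 0.933 at room temperature, on as few as 2 endothelial UMIs per library.

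**Figure D4:**
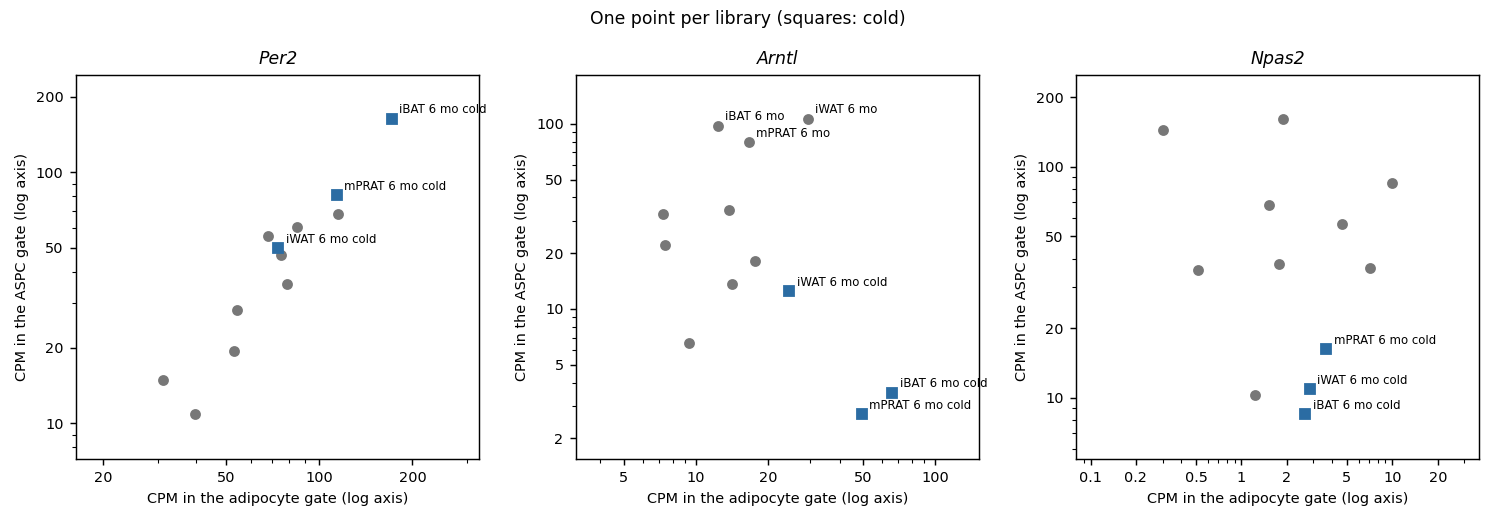
CPM in the ASPC gate against CPM in the adipocyte gate (log axes) for Per2, Arntl and Npas2, with 1 point per library and squares for cold. Per2 lies along a line, while for Arntl the cold mPRAT and iBAT libraries are highest in adipocyte gates (49.3 and 66.1 CPM) and lowest in ASPC gates (2.70 and 3.53 CPM).

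The genes whose adipocyte level was most like that of Arntl over the 12 libraries, among 6396 genes, were Kat6b (r = 0.945), Gabpb2 (0.917), Mettl25 (0.910), Rabl3 (0.902) and Pcca (0.897). The most opposite were Gm11508 (r = -0.942), Zc3h4 (-0.896), Zfp282 (-0.881), Rbm14 (-0.879) and Lctl (-0.873). For Nr1d1 the most alike were Parp3 (r = 0.876), Myl6 (0.862), Nagk (0.816), Cant1 (0.808) and Apoe (0.807), with Dbp at rank 75 (0.659). Among the most opposite were Zfyve9 (-0.766), Btd (-0.762), Cat (-0.744) and Snw1 (-0.727). These values are descriptions over libraries that also differ in depot, age and temperature.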

How the data were processed

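Sorted nuclei were sequenced with a 10x 3′ kit, per the labels' protocols. The authors deposited UMI counts per gene and barcode, made with Cell Ranger 7.0.0 on mm10, per the submitters' processing notes. Whether introns or strand were used in counting is not given in the sources used here. Barcodes were kept with at least 500 UMIs, 300 genes and at most 10% mitochondrial UMIs, and the highest doublet scores (scrublet, scanpy 1.11.5) were removed at 0.8% per 1000 nuclei. A nucleus entered a gate with at least 3 UMIs from at least 2 of 8 class markers and 3 times those of every other class. Nuclei near the gate's limit were 4.25% (adipocyte), 15.0% (ASPC) and 11.1% (endothelial).

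Counts were summed per library and gate. Gates were compared in 35 sums with edgeR 4.0.16 (TMM, filterByExpr, quasi-likelihood, library as a block, Benjamini-Hochberg over all genes, threshold 0.05). The shared block pairs the gates because they come from the same tissue, and sums of fewer than 20 nuclei were left out. Single libraries were compared by log2 ratios with 5 CPM added and exact conditional binomial intervals (95%). Cold was also tested over 3 depots, within a gate (depot as a block) and between gates (library as a block), by edgeR fits added after the values were seen. Ages and depots were not tested. Gate markers were left out of background shares. Alternatives included DESeq2 1.42.0, other gates and scalings. The edgeR fits were also run on simulated counts, with outcomes not reported here, and the permutation tests were not. The p-values measure the spread between libraries, which may share mice. The named genes were the members, those of 16 associated genes past 2-fold in adipocyte gates (the 4 largest where there were more), and the 5 genes most and least like Arntl and Nr1d1. Some genes that this rule names are not reported here. Other associated, early and glucocorticoid-responsive genes were chosen for naming after their values were seen. The members and lists were chosen with earlier results of these data known.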

Additional observations from a re-analysis of the deposited data

Results flagged for a closer look

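Arntl was past 2-fold in opposite directions in the adipocyte and ASPC gates of the same cold comparison in mPRAT (log2 ratio 1.32 in adipocyte and -3.46 in ASPC gates) and in iBAT (2.04 in adipocyte and -3.59 in ASPC gates). With 1 library per group, the difference was not tested within a depot. Over the 3 depots it was -5.47 ± 0.73 (SE) with an edgeR adjusted p of 0.113, as given above.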

How the results depend on the processing

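The comparison of gates within a library was made with the library as a block. With no replicate block, 3 in place of 6 members passed between adipocyte and ASPC gates, and the counts of the other 2 contrasts (2 and 5) did not move. With each library left out in turn, these counts ranged from 6 to 7, from 2 to 2 and from 5 to 6. Without the filter on low counts 6 members passed between adipocyte and endothelial gates. The share of all genes called without that filter is not given here, for this contrast or for the cold tests below. The cold response that differed between ASPC and adipocyte gates passed for 1 member, against 0, without that filter, with DESeq2 and without both iWAT libraries, and ranged from 0 to 1 over left-out libraries. Within a gate with the depot as a block, the members past the threshold between temperatures went from 2 to 1 in ASPC gates with left-out markers and with adipocyte RNA subtracted, to 5 without the filter and to 4 with DESeq2. In adipocyte gates they went from 0 to 3 without the filter and to 5 with DESeq2, and both counts ranged from 0 to 4 over left-out depots.

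With the left-out markers as gate, counts past 2-fold went from 5 to 2 for age in adipocyte gates, from 6 to 10 for age in ASPC gates, from 6 to 3 for age in endothelial gates and from 1 to 4 for cold in endothelial gates. Age in adipocyte gates gave 3 with nuclei weighted equally, and depots in adipocyte gates gave 5 in place of 2 with 1 CPM added. Cold in endothelial gates gave 2 without the mitochondrial limit, 7 with at least 1000 UMIs, 5 with adipocyte RNA subtracted and 2 with TMM scaling. Relations between 2 genes of a gate past the threshold (Nr1d1 with Dbp, an associated gene) went from 1 to 0 with log2(CPM + 1) and in the 8 libraries of mPRAT and iBAT.

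Directions turned for values that had not passed. Nr1d1 in adipocyte over ASPC gates was -0.16 with left-out markers. In adipocyte over endothelial gates Arntl was 0.060 with the strict gate, 0.027 with at least 1000 UMIs, 0.16 with adipocyte RNA subtracted, 0.31 without the filter and -0.37 to 0.19 over left-out libraries, and Per1 was 0.085 without the filter. In ASPC over endothelial gates Nr1d1 was -0.023 with the strict gate, -0.029 without the mitochondrial limit, -0.025 with at least 1000 UMIs, -0.0077 with adipocyte RNA subtracted, -0.024 with no replicate block, -0.11 at room temperature and -0.11 to 0.12 over left-out libraries, and Nr1d2 was -0.15 at room temperature. The difference between ASPC and adipocyte gates in the cold response of Cry1 ranged from -1.28 without both iBAT libraries to 0.45 without both iWAT libraries. Within a gate, cold over room temperature was -0.22 for Nr1d1 in ASPC gates with left-out markers and -0.52 for Per2 in endothelial gates with adipocyte RNA subtracted. Over left-out depots it was -0.12 to 0.19 in adipocyte gates for Clock, -0.35 to 2.04 for Npas2 and -0.40 to 0.17 for Nr1d2, -0.15 to 0.26 for Nr1d1 in ASPC gates and -0.20 to 0.0199 for Clock in endothelial gates. In each case the cause was not tested. Of the ratios past 2-fold, recomputed under 9 alternatives, 0 of 432 values changed sign. These ratios were picked for their size, and subtracting adipocyte RNA leaves adipocyte gates unchanged, so this count says little about how firm they are. Endothelial gates held 16 to 826 nuclei per library, against 199 to 880 ASPC and 1942 to 14815 adipocyte nuclei.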
